A study of Saccharomyces cerevisiae with 14 samples.

Results

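Yeast carries enzymes that add acetyl and methyl groups to the tails of histones H3 and H4, enzymes that remove them, and silencing proteins that bind the tails. The 44 genes described here are a list of these histone tail modifiers and silencing factors, matched by symbol to probe sets annotated to that gene alone. For a gene with more than 1 such probe set, the brightest was used. All 44 had a probe set, out of 5656 genes of the series with a probe set of their own. They comprised 16 acetyltransferase genes, 13 deacetylase genes, 8 silencing genes and 7 genes of methylation and the H2B ubiquitylation linked to it. A total of 40 were bright enough to be tested. ADA2 (the adaptor that binds Gcn5), EPL1, HOS2 (the deacetylase of the Set3 complex) and SET2 were too dim, and their values come from a fit without the filter on dim probe sets.

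The arrays were Affymetrix YG_S98 expression arrays of total RNA from budding yeast, Saccharomyces cerevisiae, in mid-log growth. In the 4 H3del arrays histone H3 lacked residues 1 to 28, and the 4 H3WT arrays came from the corresponding strain with intact H3, the histone gene being on a plasmid marked with LEU2 and the medium synthetic without leucine and uracil. In the 3 H4del arrays histone H4 lacked residues 2 to 26, and the 3 H4WT arrays came from the corresponding strain with intact H4, on a plasmid marked with TRP1 and in synthetic medium without tryptophan and uracil. The strains were otherwise congenic, so the histone deleted, the plasmid marker and the amino acid left out go together between the H3 and H4 strains. Separate cultures behind the replicates are not stated, so the p-values cover array-to-array spread, which may be technical. Values are MAS5 signal, a linear brightness with no unit, which is not compared between genes.

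Histone acetyltransferases neutralise lysines of the tails and are linked to active promoters, whereas deacetylases such as Rpd3 and Hda1 reverse this and are recruited by repressors. At the silent mating-type loci and telomeres, silencer-binding proteins bring in the Sir proteins, of which Sir2 deacetylates the H4 tail and Sir3 and Sir4 bind the tails. The truncated histones therefore lack many of the residues on which the products of these genes act.

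The state of the cells differed between the groups. The summed signal of 4 alpha-specific mating genes lay between 17066 and 21311 in H3del, against 28577 and 35578 in H3WT, and between 2628 and 3102 in H4del, against 32498 and 37224 in H4WT. The 8 haploid-specific genes summed to between 7677 and 10531 in H3del, against 13059 and 19141 in H3WT, and to between 1770 and 2056 in H4del, against 11209 and 19786 in H4WT. The 6 a-specific genes went the other way, summing to between 972 and 1443 in H3del, against 579 and 857 in H3WT, and to between 1080 and 1263 in H4del, against 904 and 1022 in H4WT, with 1 of 4 tested called higher in each deletion. By limma's test 3 of 4 alpha-specific and 2 of 8 haploid-specific genes were called lower in H3del, and 4 of 4 and 8 of 8 in H4del. The summed signal of 7 genes of the mitochondrial genome lay between 18 and 50 in H4del, against 2462 and 14210 in H4WT, and overlapped between H3del (2913 to 11521) and H3WT (2289 to 11497). The 3′ to 5′ ratio of the actin probe sets, a measure of RNA integrity, lay between 1.54 and 2.89 in H3del, 1.56 and 2.15 in H3WT, 1.54 and 1.99 in H4del and 1.48 and 1.82 in H4WT. Its median was 2.67 in H3del, 1.95 in H3WT, 1.71 in H4del and 1.64 in H4WT. The H3del median was thus above the highest array of every other group, and the part of this ratio in the results below was not tested. Replicates of a group correlated with a Spearman rho of 0.9676 to 0.9922. In these bulk samples fewer cells with a transcript and less of it per cell cannot be told apart, and the part of cell state in the results below was not tested. Probe sets of the histone genes were not used here to check the labels.

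In H3del only SAS4, a subunit of the SAS acetyltransferase, passed the threshold of a Benjamini-Hochberg adjusted p under 0.05 among the 40 tested genes. It rose 2.33-fold. This was 2.5% of the tested genes, against 7.67% of all 6492 tested probe sets called in that comparison in either direction, 5.21% higher and 2.46% lower. No gene of the list fell by limma's test, and 6 of 40 had an unadjusted p under 0.05, beside 20.1% of all tested probe sets. The log2 fold changes ran from -0.71 to 1.22 with a median of 0.06, beside a median of 0.02 over all tested probe sets. With the replicate number as a block 6 members were called and with the hybridization day as a block 5 were, beside 16.1% and 20.6% of all tested probe sets. The added members were RAP1 and ABF1, both lower, and SIR2 and HDA3, both higher, with SIR3, also higher, under the replicate block alone.

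In H4del 6 of the 40 tested genes passed the threshold. SAS4 rose 1.97-fold, and EAF3, HAT2, RPD3, GCN5 and SAS5 fell, by 1.51-fold for SAS5 to 2.29-fold for EAF3. Of these 5, EAF3, HAT2, GCN5 and SAS5 belong to acetyltransferase complexes, EAF3 also to an Rpd3 deacetylase complex, and RPD3 encodes a deacetylase. The lower calls were 28.6% of the 14 tested acetyltransferase genes and 8.33% of the 12 tested deacetylase genes. A difference between these classes was not tested. The 5 lower genes were 12.5% of those tested, against 9.67% of all tested probe sets called lower, and the 1 higher gene was 2.5%, against 7.79% called higher and 17.5% in either direction. In this setting the share of the list that fell was thus near the background of that comparison. After quantile normalization a larger share of the list than of all tested probe sets was called, counting either direction. Without that normalization the median log2 fold change was -0.18, beside -0.08 over all tested probe sets. Of the 40 values 28 were negative (70.0%, against 56.1% of all tested probe sets). An unadjusted p under 0.05 was found for 11 of 40, beside 31.4% of all tested probe sets. Signals of 10 of the 40 were below every H4WT array on all H4del arrays, beside 19% of all tested probe sets. With the replicate number as a block 10 members were called, beside 33% of all tested probe sets, the added ones being TUP1 and UME6, both higher, and HST4 and SAS3, both lower. With the day block 8 were called, beside 29.8%.

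**Figure D1:**
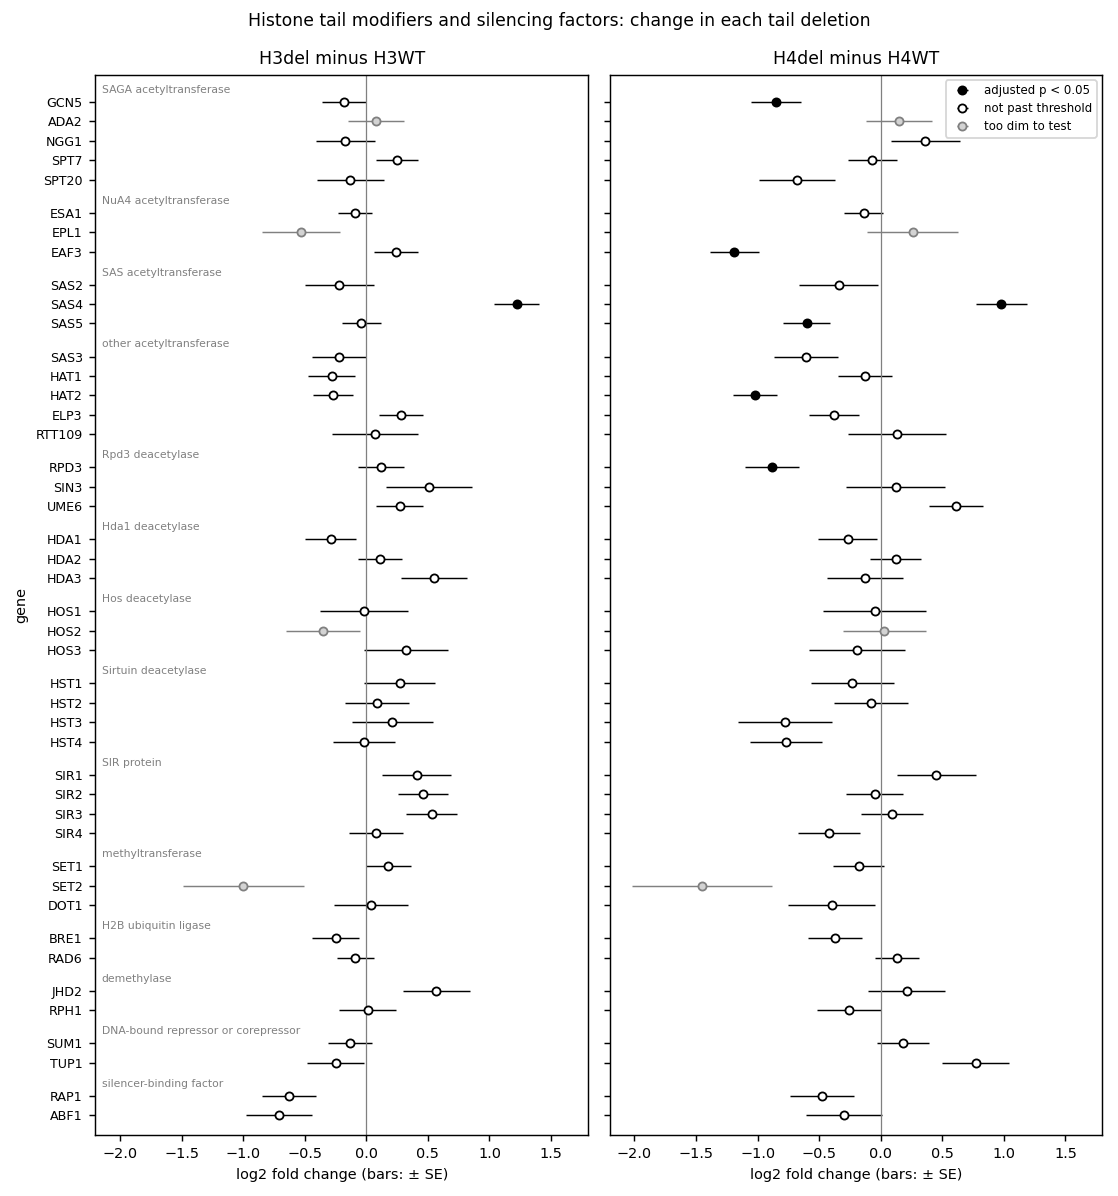
Log2 fold change of each of the 44 genes in H3del minus H3WT (left) and H4del minus H4WT (right), grouped by complex, with bars for ± 1 limma standard error. Filled points passed an adjusted p under 0.05, open points did not and grey points were too dim to be tested. SAS4 is filled and to the right of 0 in both panels, and 5 genes are filled and to the left of 0 in the right panel.

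SAS4 (YDR181C) encodes a subunit that the catalytic protein Sas2 of the SAS complex needs for activity. The complex acetylates the H4 tail and limits the spread of silencing from telomeres. SAS4 signal was 1339, 1193, 1186 and 1305 on the H3del arrays, against 530.0, 447, 456 and 713 on the H3WT arrays. It was 1123, 875 and 773 on the H4del arrays, against 394, 516 and 465 on the H4WT arrays. Every array of each deletion strain was above every array of its wild type, as for 7.9% of all tested probe sets in H3del and 14.3% in H4del. The log2 fold change was 1.22 ± 0.18 (SE; 95% interval 0.84 to 1.61; adjusted p = 0.00044) in H3del and 0.98 ± 0.21 (0.53 to 1.42; adjusted p = 0.00653) in H4del. The difference between these, 0.25 ± 0.28, was not past the threshold (95% interval -0.34 to 0.84; adjusted p = 0.65). Within the hybridization days that held both groups, SAS4 was higher by 1.35, 1.35 and 0.86 on the log2 scale in H3del and by 1.29 and 0.71 in H4del. Its chromosomal neighbours SCC2 and CDC1 were called in neither deletion.

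Neither of the other subunit genes of the same complex was called higher. SAS5 (YOR213C), the third subunit, gave 280.0, 288, 349 and 285 on the H3del arrays, against 294, 279.8, 353 and 306 on the H3WT arrays. It gave 225, 220.2 and 195 on the H4del arrays, against 369.7, 340.3 and 288 on the H4WT arrays. The H3 groups overlapped (-0.04 ± 0.16, adjusted p = 0.935), whereas all H4del arrays were below all H4WT arrays (-0.60 ± 0.19, adjusted p = 0.0385). This call was lost under 9 of 24 alternative settings, with an adjusted p of up to 0.13, among them leaving out any single H4del array. STE4, a haploid-specific mating gene beside SAS5 on the chromosome, fell by 2.02 in H4del (adjusted p = 1.96e-05), and its part in the SAS5 value was not tested. SAS2 (YMR127C), the catalytic subunit, gave 207, 366.5, 271 and 267 on the H3del arrays, against 395, 275, 299.8 and 318 on the H3WT arrays. It gave 262, 293 and 156 on the H4del arrays, against 410.1, 373 and 167 on the H4WT arrays. SAS2 arrays overlapped in both comparisons, with log2 fold changes of -0.22 (95% interval -0.80 to 0.37) in H3del and -0.34 (-1.02 to 0.33) in H4del.

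EAF3 (YPR023C) encodes a chromodomain protein shared by the NuA4 acetyltransferase and an Rpd3 deacetylase complex. Its signal was 5430.5, 5400.0, 4811 and 6369 on the H3del arrays, against 4264, 5119, 4636 and 4576 on the H3WT arrays. It was 2365.5, 2416.5 and 1340.0 on the H4del arrays, against 4731, 4521 and 4360.1 on the H4WT arrays. All H4del arrays lay below all other arrays, while the H3 groups overlapped. The log2 fold change was -1.19 ± 0.20 in H4del (95% interval -1.63 to -0.76; adjusted p = 0.00167) and 0.24 ± 0.18 in H3del (adjusted p = 0.516). Within days the H4del difference was -0.98 and -1.69, the larger on the day that held replicate 3 of each group. Of the other NuA4 genes, ESA1 (YOR244W), the essential catalytic subunit, gave 599, 687, 626 and 636 on the H3del arrays, against 630.5, 659.9, 762 and 661 on the H3WT arrays. On the H4del arrays it gave 489, 486 and 500.4, against 487.5, 550.3 and 597.5 on the H4WT arrays. ESA1 overlapped between each deletion and its wild type and varied least of the tested genes, with a pooled SD of 0.10 on the log2 scale within groups, against a median of 0.31. Its 95% intervals were -0.39 to 0.21 in H3del and -0.49 to 0.21 in H4del. EPL1, the scaffold that holds Esa1 in the complex, was too dim to be tested.

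GCN5 (YGR252W) encodes the catalytic subunit of the SAGA and ADA complexes, which acetylate the H3 tail. Its signal was 508, 404, 518 and 503 on the H3del arrays, against 484, 509, 692 and 519.5 on the H3WT arrays. It was 269, 244 and 250.2 on the H4del arrays, against 498, 374 and 559 on the H4WT arrays. The H4 groups did not overlap, and the log2 fold change was -0.85 ± 0.20 in H4del (95% interval -1.28 to -0.42; adjusted p = 0.0115). The H3 groups overlapped (-0.18 ± 0.18, adjusted p = 0.649). NOP19, the neighbour of GCN5 on 1 side, also fell in H4del (-0.70 ± 0.22, adjusted p = 0.0366), and PUP2 on the other side was not past the threshold (-0.43 ± 0.16, adjusted p = 0.0721). The other tested SAGA members were NGG1, an adaptor of the catalytic module, and SPT7 and SPT20, which hold the complex together. None was called in either deletion, and their log2 fold changes ran from -0.17 to 0.25 in H3del and from -0.68 (SPT20) to 0.36 (NGG1) in H4del.

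HAT2 (YEL056W) encodes the subunit that helps the Hat1 enzyme bind newly made H4. Its signal was 1633, 1497, 1436.5 and 1808 on the H3del arrays, against 2070.3, 2081, 1781 and 1753 on the H3WT arrays. It was 954, 751 and 661.5 on the H4del arrays, against 1732, 1502 and 1556 on the H4WT arrays. HAT2 was 2.02-fold lower in H4del without overlap (-1.02 ± 0.18, 95% interval -1.4 to -0.63, adjusted p = 0.00226), and overlapped in the H3 comparison (-0.27 ± 0.16, adjusted p = 0.38). POL5, its neighbour, fell as well in H4del (-0.90 ± 0.21, adjusted p = 0.00883). HAT1, which encodes the catalytic partner of Hat2, had a log2 fold change of -0.13 ± 0.22 in H4del (adjusted p = 0.717). The remaining acetyltransferase genes were SAS3, the catalytic gene of NuA3, ELP3, the catalytic gene of Elongator, and RTT109, which acetylates new H3 with histone chaperones. None of these was called in either deletion, the lowest value being -0.61 ± 0.26 for SAS3 in H4del (adjusted p = 0.12, and 0.0404 with the replicate block). Over the 14 tested acetyltransferase genes the median log2 fold change was -0.11 in H3del (-0.20 after quantile normalization) and -0.36 in H4del (-0.34). Over all tested probe sets the medians were 0.02 and -0.08. In H4del 11 of the 14 values were negative (78.6%), beside 70.0% of the 40 tested genes and 56.1% of all tested probe sets.

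**Figure D2:**
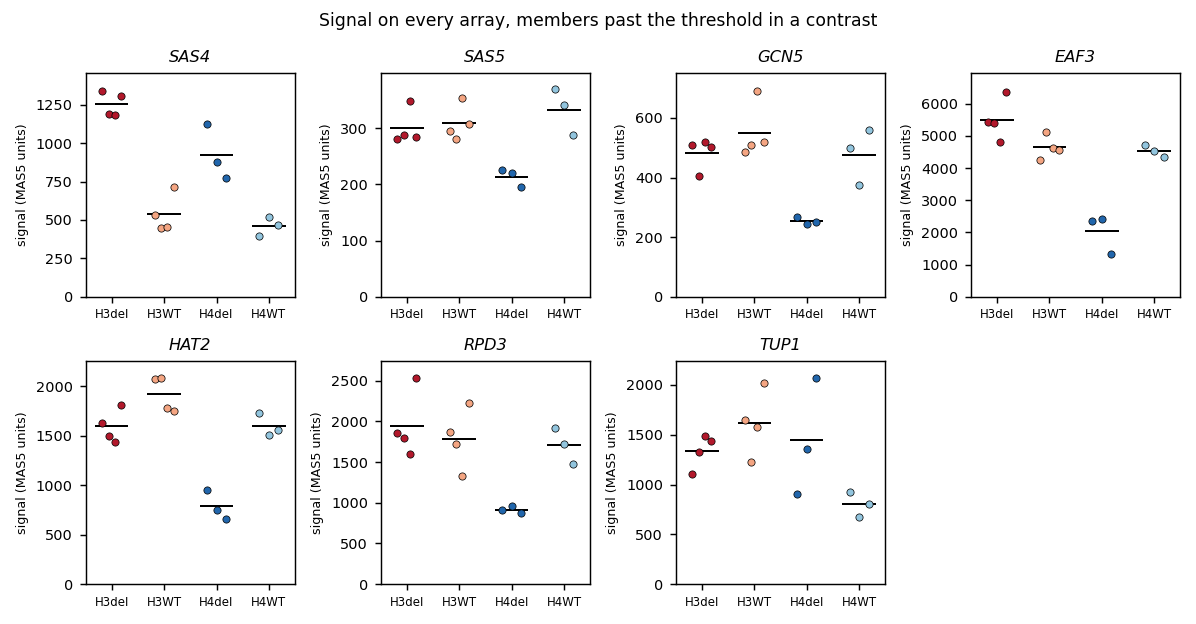
MAS5 signal on every array for the 7 genes past the threshold in any comparison, by group (H3del, H3WT, H4del, H4WT), with points for arrays and a line for the group mean. The H4del points lie below all H4WT points for SAS5, GCN5, EAF3, HAT2 and RPD3 and above them for SAS4, while for TUP1 they overlap and the H3WT points lie above the H4WT points.

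Among the deacetylase genes RPD3 was the single one called, in H4del. RPD3 (YNL330C) encodes the catalytic subunit of the large and small Rpd3 complexes, which repressors such as Ume6 bring to promoters. Its signal was 1856, 1791, 1595 and 2534.5 on the H3del arrays, against 1869, 1728, 1328 and 2232 on the H3WT arrays. It was 911, 961 and 869.7 on the H4del arrays, against 1925, 1720.5 and 1472 on the H4WT arrays. The H4del arrays were below all others, with a log2 fold change of -0.88 ± 0.22 (95% interval -1.34 to -0.42; adjusted p = 0.0132), and the H3 groups overlapped (0.12 ± 0.19, adjusted p = 0.791). The H4del call was lost without H4WT replicate 1 (adjusted p = 0.0543). SIN3, the scaffold of the Rpd3 complexes, had log2 fold changes of 0.51 ± 0.35 in H3del and 0.12 ± 0.40 in H4del and the widest spread between arrays of a group among the tested genes (SD 0.57). UME6, the DNA-binding repressor, was 467, 384 and 368 on the H4del arrays, against 257, 231 and 295 on the H4WT arrays. These did not overlap, but the change of 0.61 ± 0.22 was not past the threshold (adjusted p = 0.0642, and 0.0224 with the replicate block).

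HDA1 (YNL021W), the catalytic gene of the Hda1 complex, gave 134, 152, 147 and 147 on the H3del arrays, against 161, 153, 210.4 and 204 on the H3WT arrays. It gave 128, 165 and 181 on the H4del arrays, against 267, 182 and 146 on the H4WT arrays. All H3del arrays were below all H3WT arrays, as for 6.87% of all tested probe sets, but by little, and the change of -0.29 ± 0.21 was not past the threshold (adjusted p = 0.499). The H4 groups overlapped (-0.27 ± 0.24, adjusted p = 0.473). HDA2 and HDA3 encode the other subunits of this complex, and HDA3 had the largest H3del value among the deacetylase genes (0.55 ± 0.27, adjusted p = 0.275, and 0.0265 with the replicate block). HOS1 and HOS3, deacetylases related to Rpd3 and Hda1, lay between -0.19 and 0.32 in the 2 deletions, with neither called. Of the NAD-dependent relatives of Sir2, HST1 and HST2 were not called and HST3 and HST4, which deacetylate newly deposited H3, were at -0.78 ± 0.38 (adjusted p = 0.18) and -0.77 ± 0.29 (adjusted p = 0.0783) in H4del. HST4 passed with the replicate block (adjusted p = 0.00609). Over the 12 tested deacetylase genes the median log2 fold change was 0.17 in H3del and -0.16 in H4del, or 0.09 and -0.33 after quantile normalization.

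None of the 8 silencing genes was called by limma's test in either deletion. An unadjusted p under 0.05 was found for 4 of them in H3del and for 1 in H4del, beside 20.1% and 31.4% of all tested probe sets. SIR1 (YKR101W), whose product links silencers to Sir4, gave 242, 309, 307 and 367 on the H3del arrays, against 225, 194, 156 and 368 on the H3WT arrays. It gave 346, 254 and 331 on the H4del arrays, against 313, 256 and 131 on the H4WT arrays. Both comparisons overlapped for SIR1 (0.41 ± 0.28 in H3del and 0.45 ± 0.32 in H4del), and its other probe set, too dim to be tested, gave 0.24 ± 0.31 and 0.65 ± 0.36. SIR2 (YDL042C), the deacetylase, gave 1060.4, 1174, 910.3 and 1307 on the H3del arrays, against 861, 778, 611 and 985 on the H3WT arrays. It gave 1002, 930.0 and 953 on the H4del arrays, against 1174, 1165 and 716 on the H4WT arrays. SIR2 was 1.38-fold higher in H3del, with the lowest H3del array under the highest H3WT array (0.46 ± 0.20, 95% interval 0.04 to 0.88, adjusted p = 0.205), and passed with the replicate block (0.0387) and the day block (0.0278). In H4del its change was -0.05 (95% interval -0.53 to 0.44).

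SIR3 (YLR442C), whose product binds the tails and spreads along nucleosomes, gave 1279.9, 1094, 899 and 1165 on the H3del arrays, against 722, 895, 622 and 828 on the H3WT arrays. On the H4del arrays it gave 674.5, 1276 and 783, against 948, 902 and 650.5 on the H4WT arrays. The H3 groups did not overlap, by a narrow margin between the lowest H3del and the highest H3WT array, and H3del exceeded H3WT by 0.55, 0.52 and 0.49 on the log2 scale within the 3 days that held both. The fitted change of 0.53 ± 0.21 was not past the threshold (95% interval 0.07 to 0.98, adjusted p = 0.174), and reached 0.0467 with the replicate block and 0.0517 with the day block. In H4del the SIR3 change was 0.09 (95% interval -0.43 to 0.61). SIR4 (YDR227W), the scaffold of the Sir complex, gave 194.5, 186, 252 and 252 on the H3del arrays, against 165, 213, 162 and 312 on the H3WT arrays. It gave 178, 165 and 119 on the H4del arrays, against 202, 209 and 216 on the H4WT arrays. The H3 groups overlapped for SIR4 (0.08 ± 0.22), and the H4del arrays were all lower than H4WT without passing the threshold (-0.42 ± 0.25, adjusted p = 0.276, and 0.0448 after quantile normalization).

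RAP1 and ABF1 encode general regulatory factors that bind silencers and many promoters. RAP1 was 249, 379.8, 425 and 371 on the H3del arrays, against 543, 401, 595.5 and 712.5 on the H3WT arrays. ABF1 was 243, 261, 181 and 382 on the H3del arrays, against 409, 373, 320.1 and 702 on the H3WT arrays. Each overlapped by 1 H3del array, and each was lower within all 3 days that held both groups. The log2 fold changes of -0.63 ± 0.22 for RAP1 (adjusted p = 0.112) and -0.71 ± 0.27 for ABF1 (adjusted p = 0.146) were the lowest of the tested genes in H3del. With the replicate block the adjusted p was 0.0472 for RAP1 and 0.00403 for ABF1. In H4del the values were -0.48 ± 0.26 for RAP1 and -0.30 ± 0.31 for ABF1, both not past the threshold. SUM1, the repressor that recruits Hst1 to meiotic genes, lay at -0.13 ± 0.18 in H3del and 0.18 ± 0.21 in H4del.

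**Figure D3:**
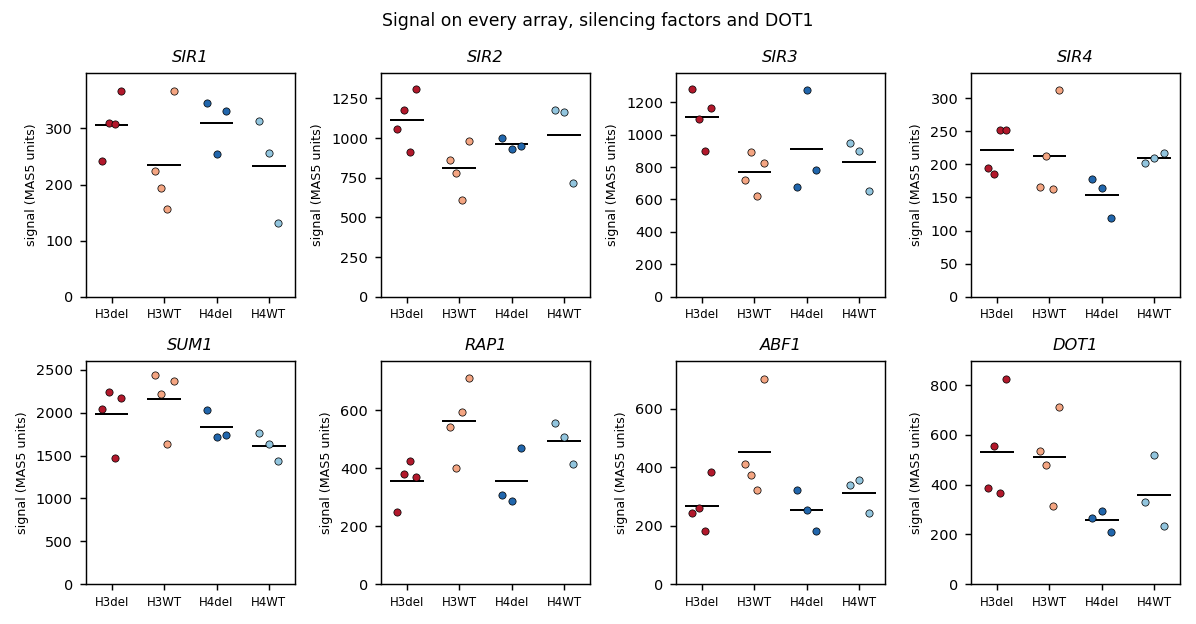
MAS5 signal on every array for SIR1 to SIR4, SUM1, RAP1, ABF1 and DOT1, by group (H3del, H3WT, H4del, H4WT), with points for arrays and a line for the group mean. The H3del points lie above the H3WT points for SIR3 and mostly above them for SIR2, mostly below them for RAP1 and ABF1, and the H4del points lie below the H4WT points for SIR4.

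None of the 6 tested genes of methylation and ubiquitylation was called by limma's test in either deletion, and an unadjusted p under 0.05 was found for 1 in H3del and 0 in H4del, beside 20.1% and 31.4% of all tested probe sets. SET1 (YHR119W), the methyltransferase of the COMPASS complex, whose target lysine lies in the deleted part of H3, gave 1184.5, 1088, 871 and 1053 on the H3del arrays, against 1014, 1069, 679 and 969 on the H3WT arrays. On the H4del arrays it gave 835, 934 and 786.5, against 1133, 1029 and 769 on the H4WT arrays. SET1 overlapped in both, at 0.18 (95% interval -0.21 to 0.57) in H3del and -0.18 (-0.63 to 0.27) in H4del. DOT1 (YDR440W), which methylates the core of H3 and whose loss weakens telomeric silencing, gave 386, 555, 365 and 826 on the H3del arrays, against 537, 479.5, 314 and 713.5 on the H3WT arrays. On the H4del arrays it gave 267, 295 and 211, against 329, 518 and 232 on the H4WT arrays. DOT1 also overlapped in both, at 0.04 (95% interval -0.60 to 0.68) in H3del and -0.40 (-1.13 to 0.34) in H4del.

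SET2 (YJL168C), the methyltransferase that travels with elongating polymerase, was dim. It gave 10.3, 69.5, 62.3 and 135 on the H3del arrays, against 57.9, 109, 152 and 267 on the H3WT arrays. On the H4del arrays it gave 49.1, 7.9 and 34.1, against 90.5, 149.8 and 78.0 on the H4WT arrays. The H4del arrays were below the H4WT arrays and the H3 groups overlapped, and in the fit without the filter the changes were -1.0 ± 0.49 (adjusted p = 0.29) in H3del and -1.45 ± 0.57 (adjusted p = 0.098) in H4del. The ubiquitin ligase gene BRE1 and its partner RAD6, which mark H2B ahead of Set1 and Dot1, and the demethylase genes JHD2 and RPH1 were not called. The largest value among these 4 was 0.57 ± 0.27 for JHD2 in H3del (adjusted p = 0.246). Over the 6 tested genes of this class the median log2 fold change was 0.02 in H3del (-0.02 after quantile normalization) and -0.22 in H4del (-0.09).

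The effects of the 2 tail deletions were compared directly as the H3del change minus the H4del change. EAF3 was the single member past the threshold, at 1.43 ± 0.27 (95% interval 0.86 to 2.01; adjusted p = 0.0103), 2.5% of the tested genes against 3.68% of all tested probe sets in either direction and 2.4% higher. By limma's test 7 of 40 had an unadjusted p under 0.05, beside 20.2% of all tested probe sets. The 40 differences ran from -1.02 to 1.43 with a median of 0.34, beside a median of 0.10 over all tested probe sets. RPD3 had 1.00 ± 0.29 (adjusted p = 0.0636) and HAT2 had 0.75 ± 0.24 (adjusted p = 0.0929). The falls of these 2 genes in H4del and not in H3del were therefore not shown to differ between the deletions. With the replicate block both passed, at adjusted p = 0.00396 for RPD3 and 0.023 for HAT2, and so did HST4 (0.0467) and TUP1 (0.0375), making 5 members with EAF3, beside 15.9% of all tested probe sets. With the day block 6 were called, beside 16.6%, namely EAF3, RPD3, HAT2, HST4 (0.034), GCN5 (0.0254) and ELP3 (0.033). Without a block GCN5 was at 0.67 ± 0.27 (adjusted p = 0.169) and SAS5 at 0.56 ± 0.25 (adjusted p = 0.217). Across the 40 genes the changes in the 2 deletions had a Pearson correlation of 0.39, beside 0.37 across all tested probe sets, and 22 of 40 had the same sign (55.0%, against 60.9% of all tested probe sets). Genes that share arrays and complexes are not independent, so this is a description.

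**Figure D4:**
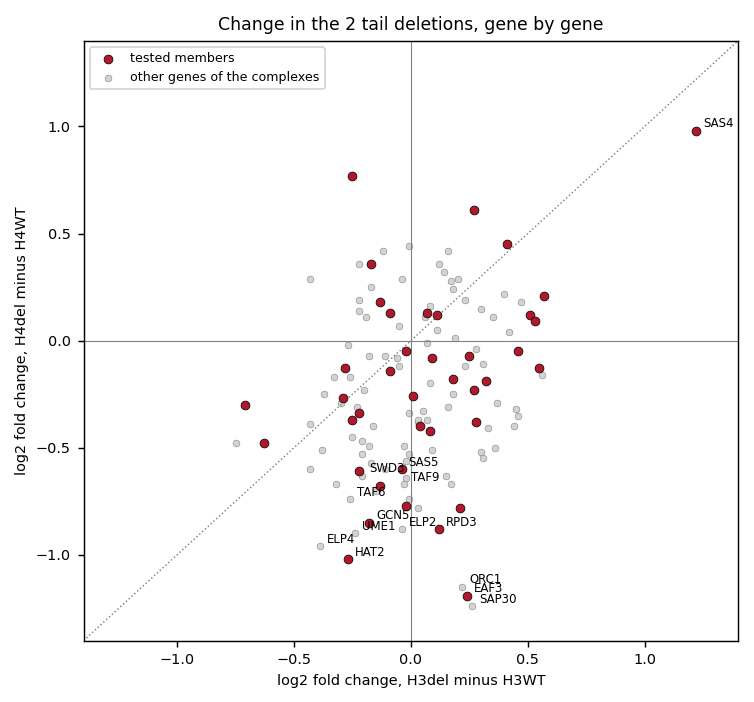
Log2 fold change in H4del minus H4WT (y axis) against that in H3del minus H3WT (x axis) for the 40 tested genes (red) and 89 tested other genes of the same complexes (grey), with names for genes called in either deletion and a dotted line of equal change. SAS4 lies alone at the top right, near the line, and the other named genes lie low at H4del values of -0.60 to -1.24.

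TUP1 (YCR084C), which encodes the corepressor that binds the H3 and H4 tails and partners Cyc8, differed between the 2 wild types. It gave 1647, 1222, 1577 and 2016 on the H3WT arrays, against 927, 675 and 804 on the H4WT arrays. The wild types did not overlap, as for 7.78% of all tested probe sets, and H3WT minus H4WT was 0.98 ± 0.25 on the log2 scale (adjusted p = 0.0403). TRX3, the neighbour of TUP1 on 1 side, was at 0.86 ± 0.26 in this comparison, not past the threshold (adjusted p = 0.0927). Its part in the TUP1 value was not tested, and the gene on the other side had no probe set. TUP1 was the single one of 40 tested genes called in this comparison (2.5%, against 3.4% of all tested probe sets in either direction and 1.23% higher), and 5 of 40 had an unadjusted p under 0.05, beside 16.1% of all tested probe sets. The call was lost under 13 of 25 alternative settings, among them the day block (0.73, adjusted p = 0.247), under which none of the list was called, beside 3.8% of all tested probe sets. On the only day that held both wild types the difference was 0.96. With the replicate block TUP1 kept its call (adjusted p = 0.0263), beside 7.87% of all tested probe sets. TUP1 was 1109, 1329.6, 1482.5 and 1440.3 on the H3del arrays, which overlapped H3WT (-0.25 ± 0.23). It was 903, 1358 and 2069 on the H4del arrays, which overlapped H4WT and gave 0.77 ± 0.27 (adjusted p = 0.0595, and 0.0218 with the replicate block). Within days this H4del difference was 0.25 and 1.34.

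**Figure D5:**
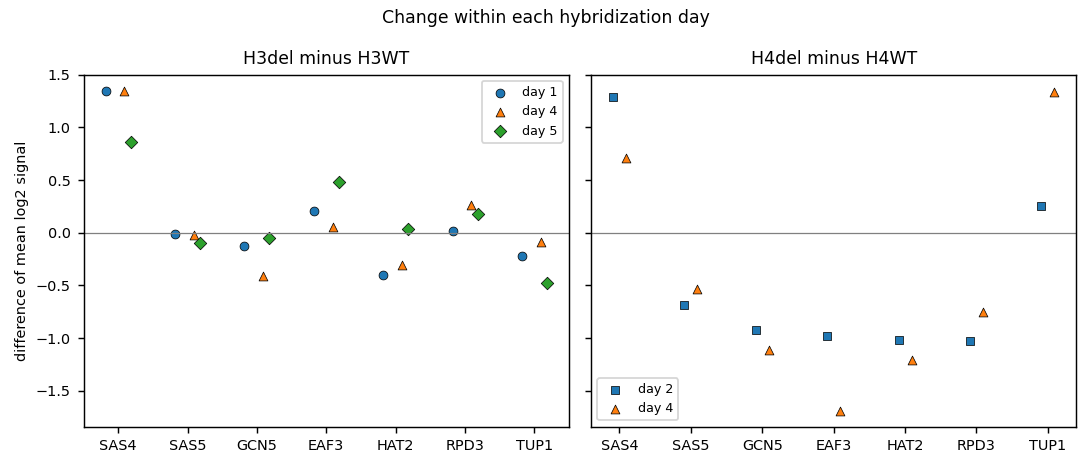
Difference of mean log2 signal within each hybridization day that held both groups, for the 7 genes past the threshold in any comparison, H3del minus H3WT (left, days 1, 4 and 5) and H4del minus H4WT (right, days 2 and 4). In the right panel all points of SAS5, GCN5, EAF3, HAT2 and RPD3 are below 0 on both days, and SAS4 is above 0 on every day in both panels.

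A further 94 genes of the same complexes, of histone chaperones and of silencing cofactors were listed, of which 92 had a probe set and 89 were tested. In H3del none was called by limma's test, beside 7.67% of all tested probe sets in either direction, and 5 had an unadjusted p under 0.05, beside 20.1%. With the replicate block 2 were higher and 1 lower in H3del, beside 16.1% of all tested probe sets in either direction. With the day block 2 were higher and 3 lower in H3del, beside 20.6%. In H4del 8 fell and none rose, which was 8.99% of the 89, near the 9.67% of all tested probe sets. In H4del with the replicate block 22 were lower and 1 was higher, beside 18.8% and 14.2% of all tested probe sets. With the day block 18 were lower and 0 higher in H4del, beside 29.8% in either direction. The 8 called without a block came from 5 of the listed groups.

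SAP30, a subunit of the large Rpd3 complex, averaged 507 ± 164 in H4del (SD, n = 3), against 1190 ± 210 in H4WT (SD, n = 3). Its change of -1.24 ± 0.23 (adjusted p = 0.00271) was the lowest of the 89, and without a block it was the single one of them called for the difference between the deletions (1.50 ± 0.30, adjusted p = 0.0149). This 1 call was 1.12% of the 89, beside 3.68% of all tested probe sets in either direction. With the replicate block 9 of the 89 were called for that difference, all higher, beside 15.9% of all tested probe sets in either direction. With the day block 9 were higher and 1 lower, beside 16.6%. ORC1 was among those called under each block. UME1, also of the Rpd3 complexes, fell by 0.90 (adjusted p = 0.0399). ORC1, whose product binds replication origins and silencers and is a paralog of Sir3, fell by 1.15 (adjusted p = 0.0143). ELP4 and ELP2, which form the Elongator complex with ELP3, fell by 0.96 and 0.88 (adjusted p = 0.0103 and 0.0291). TAF6 and TAF9, histone-fold proteins shared by SAGA and TFIID, fell by 0.74 and 0.67 (adjusted p = 0.011 and 0.0475). SWD3, a COMPASS subunit, fell by 0.63 (adjusted p = 0.042). Between the wild types none of the 89 was called, beside 3.4% of all tested probe sets in either direction, and 11 had an unadjusted p under 0.05, beside 16.1%. With the replicate block 3 were higher and 2 lower in H3WT, beside 7.87% of all tested probe sets in either direction. With the day block 2 were higher, beside 3.8%.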

How the data were processed

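For each of 9335 probe sets on 14 arrays the authors deposited a linear signal intensity. It was computed with MAS5, per the submitters' processing notes (version not given in the sources used here). Trimmed means of 1500.83 to 1501.18 per array were nearly equal, so no further scaling was done. The 60 control probe sets were left out, and of the 9275 others the platform annotation gave 6504 a single gene, 328 several genes and 2443 no gene. No pair of arrays held identical values.

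An offset of 16.9 (the 10th percentile of the signals) was added before log2. Probe sets whose mean log2 value exceeded the 30th percentile were tested, 6492 in all. Fold changes are on this scale and understate those of dim genes. Models with 1 mean per group were fitted with limma 3.58.1 (lmFit, eBayes with a trend, 10 residual degrees of freedom) in R 4.3.3 on all 14 arrays, with Benjamini-Hochberg adjustment over all 6492. Errors beside log2 values are limma's standard errors. Tables were made in Python 3.11.15 with pandas 2.3.3, numpy 2.4.6 and scipy 1.17.1, and plots with matplotlib 3.10.9. In simulated data arrays were drawn independently of each other, with 100 of 6492 probe sets raised 2-fold and 100 raised 4-fold. Of the 2-fold changes 68% were recovered for H3del and 59% for H4del. For the difference between the deletions 32% were recovered, and between the wild types 65%. False calls were 12 of 177 calls for H3del, 14 of 168 for H4del, 5 of 123 for the difference and 9 of 172 between the wild types. Changes in both directions, or in as many probe sets as called in the data, were not simulated.

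The 44 genes, the 94 other genes and the tests were chosen with earlier results of these data known. Values on every array are given for genes past the threshold and for GCN5, ESA1, SAS2, RPD3, HDA1, SIR1 to SIR4, SET1, SET2 and DOT1. Array values of RAP1, ABF1 and UME6 were added after they were seen. They are given only for the H3del and H3WT arrays (RAP1, ABF1) or the H4del and H4WT arrays (UME6). Neighbouring genes were the protein-coding genes before and after in the RefSeq order of start positions.

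Arrays were hybridized on 5 days, per the file headers. Replicates 1 and 2 of both H3 groups were run on day 1 and their replicate 4 on day 5. H4del replicates 1 and 2 and H4WT replicate 1 were run on day 2, H4WT replicate 2 alone on day 3, and replicate 3 of every group on day 4. Deviations from group means correlated at 0.157 to 0.638 for all 19 pairs of arrays with the same replicate number in different groups, and at -0.466 to 0.305 for the 51 pairs sharing neither number nor day. The number was therefore also fitted as a replicate block (7 residual degrees of freedom), and the day as another (6), in which H4WT replicate 2 is wholly taken up by its day. The number and the day coincide fully for replicates 3 and 4. Of the 19 pairs with the same number, 9 were hybridized on different days, and these correlated at 0.157 to 0.502.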

Additional observations from a re-analysis of the deposited data

Results flagged for a closer look

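Single arrays that stood apart were looked for in the 4-array groups of 17 genes (those past the threshold and the 12 fixed ones), 34 groups in all, with Dixon's test, which picks out about 1 in 20 groups by chance. GCN5 on H3del replicate 2 was 403.9, against 502.6 to 517.9 on the other H3del arrays. SAS5 on H3del replicate 3 was 348.6, against 280.0 to 288.2 on the others. Neither gene was called in H3del.

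The effects of the 2 tail deletions differed by the interaction test for EAF3 (1.43 on the log2 scale, H3del change minus H4del change) and for SAP30 (1.50). Both genes were called lower in H4del and neither was called in H3del.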

How the results depend on the processing

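Of the 9 calls of list genes, 6 were kept under every alternative that gave a value and none changed sign. SAS5 in H4del, RPD3 in H4del and TUP1 between the wild types were lost under some. The count of list genes called in H3del was 1, but 5 with the hybridization day as a block and 6 with the replicate block, and 1 when any array was left out. In H4del it was 6, but 12 after quantile normalization and 10 with the replicate block, and 4 to 9 when 1 array was left out. Over all tested probe sets quantile normalization gave 1148 calls in H4del, against 1134 without it. The count for the list thus rose while that for all probe sets changed little. The called share of the list was then above that of all tested probe sets. For the difference the count of list genes was 1, but 6 with the day block and 5 with the replicate block. It was 2 without the 4 arrays of day 4 (chosen after seeing the data), and 1 to 2 when 1 array was left out. Between the wild types it was 1, but 0 after quantile normalization, with only the compared groups or with the day block, and 0 to 1 when 1 array was left out. The replicate block kept each of the 9 calls. Of 20 values of fixed genes that were not called and had alternatives, 17 were called under none and 3 under at least 1 (SIR2 and SIR3 in H3del, SIR4 in H4del).

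Over all tested probe sets, H3del calls numbered 498, but 250 with a filter at the 50th percentile, 1338 with the day block, 1045 with the replicate block and 330 without H3del replicate 1. H4del calls numbered 1134, but 655 with only the compared groups, 1933 with the day block, 2144 with the replicate block and 585 to 670 without any of the first 2 arrays of H4del or H4WT. Calls of the difference numbered 239, but 368 after quantile normalization, 1078 and 1035 with the day and replicate blocks, and 117 to 469 when 1 array was left out. Calls between the wild types numbered 221, but 135 with the stricter filter, 100 with only the compared groups, 511 with the replicate block, and 137 or 138 without H4WT replicate 1 or 2. The share of calls that were higher was 67.9% in H3del but 54.7% with the day block, 65.3% for the difference but 51.9% after quantile normalization, and 36.2% between the wild types but 48.3% with the replicate block. The causes of these shifts were not tested. Values of ADA2, EPL1, HOS2 and SET2 are limited by their dim signal, and 3 or 4 arrays a group limit the precision of all others.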
